A study of Physalis pubescens with 5 samples.

Results

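A group of transcripts described as auxin-induced protein 5NG4-like was compared between floral buds and young fruits of the nightshade Physalis floridana P106, which the organism field of the labels gives as Physalis pubescens. The 4 unigenes, which are transcripts assembled from the reads, were Unigene28200_P106, Unigene29148_P106, Unigene7086_P106 and Unigene3932_P106, out of 133571 unigenes in the deposited tables and out of 79 that carried a 5NG4 description. The 4 were chosen by their description and by their counts in these libraries, 3 for standing higher in fruit than in buds and 1 for standing lower. Their difference between the organs is therefore given as a description, and no p-value or call of a member is used as support. Young fruits were collected after fertilization and floral buds before it, from plants of one line grown under glass on a cycle of 16 h light and 8 h dark. Each organ had 2 libraries, called replicates 1 and 2, although the design text speaks of 3 replicates, and a further sample of pooled organs that served for assembly was not analysed here. The extraction text, which is the same for all samples, names fruits of 5 days. Nothing in the labels says that the replicates of an organ were taken from different plants. Every p-value below sets a difference against the spread between libraries alone, estimated with the help of all tested unigenes. That spread may be technical.

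The protein family takes its name from 5NG4 of loblolly pine, a transcript induced by auxin that encodes a putative membrane protein. Its relatives include nodulin MtN21 of Medicago truncatula and WAT1 (WALLS ARE THIN1) of Arabidopsis, a carrier in the vacuole membrane that exports auxin and is needed for thick secondary walls in stem fibres. Other Arabidopsis relatives move amino acids across membranes, some of them on the route to the seeds. Auxin itself is known for its part in fruit set, the step in which a fertilized ovary begins to grow.

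The 4 libraries held 8565828 ± 336322 uniquely mapped reads each (mean and SD), the largest 1.09 times the smallest. One count was thus worth 0.111 to 0.121 CPM, the unit of counts scaled to a common library size. Fruit replicate 1 stood apart from the others: Pearson's r of log2 CPM across 59858 unigenes, which are not independent replicates, was 0.645 between the fruits, 0.891 between the buds and 0.94 between fruit and bud replicates 2. Unless said otherwise, per-length levels are the deposited RPKM, which also scale the counts to the length of the unigene, and fold changes are those of fruit over floral bud from edgeR. Intervals are exact 95% intervals on read counts and cover counting error only. No molecular identifiers are described, so repeated reads of one molecule were counted as separate and the intervals may be too narrow. No file used here holds the sequence of any unigene.

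The descriptions of the members depend on the annotation. The tables of replicate 2 described all 4 as 5NG4-like, whereas the tables of replicate 1 called Unigene28200_P106 a nodulin family protein of cotton, Unigene29148_P106 and Unigene7086_P106 hypothetical proteins of grapevine, and Unigene3932_P106 an unnamed grapevine protein. Among the 79 unigenes with a 5NG4 description, 15 carried a 5NG4 name in the replicate 1 tables. These include Unigene19549_P106, which had no reads in replicate 2 libraries and whose name comes from replicate 1 alone. Unigene28200_P106 (599 bases, E-value 6.73e-79) and Unigene29148_P106 (630 bases, E-value 1.84e-69) had the same tomato protein as best hit. Unigene7086_P106, at 1204 bases the longest member, matched another tomato protein with an E-value of 6.04e-153. Unigene3932_P106 (663 bases) matched a grapevine protein with an E-value of 7.14e-30, the weakest match among the members. Of the 79 unigenes, 74 had a tomato protein as best hit and 3 a grapevine protein. The deposited gene ontology placed Unigene7086_P106 in an intracellular membrane-bounded organelle, named only the general class of cell part for Unigene28200_P106 and, in the replicate 1 tables, Unigene29148_P106, and gave no component for Unigene3932_P106.

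Unigene28200_P106 was present at 124 and 91.8 RPKM in fruit replicates 1 and 2 and at 42.9 and 28.7 RPKM in floral bud replicates 1 and 2. Both fruit libraries lay above both bud libraries. In counts this was 671 and 453 reads in fruit against 222 and 144 in buds, or 64.8 ± 13.8 CPM against 21.4 ± 6.0 CPM (SD, n = 2). The fitted level in fruit was 3.04 times that in buds (log2 fold change 1.61, SE 0.35).

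Unigene29148_P106, whose best hit is the same tomato protein, was at 143 and 101 RPKM in the fruits and 46.8 and 24.1 RPKM in the buds. It was the most abundant member per length in both fruit libraries, again with no overlap between the organs. Mean levels were 77.0 ± 18.6 CPM for fruit and 22.3 ± 10.1 CPM for buds (SD, n = 2), with a fitted fold of 3.48 (log2 fold change 1.80, SE 0.43). Here floral bud replicate 2 was the lowest library, and the log2 fold change was 2.28 without floral bud replicate 1 and 1.47 without floral bud replicate 2.

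Unigene7086_P106 was less abundant and more even within each organ. It stood at 34.3 and 32.7 RPKM in the fruits and at 11.9 and 12.4 RPKM in the buds. The replicates of an organ differed far less than the organs did, at 40.3 ± 1.42 CPM for fruit and 14.6 ± 0.41 CPM for buds (SD, n = 2). The fitted fold was 2.78 (log2 fold change 1.48, SE 0.30). Between single libraries the ratio of fruit to bud ran from 2.63 (interval 2.14 to 3.26) to 2.88 (interval 2.35 to 3.56), and the intervals of all 4 pairs of libraries overlapped.

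Unigene3932_P106 went the other way. It stood at 31.1 and 58.5 RPKM in the buds, and at 0.34 and 4.03 RPKM in fruit replicates 1 and 2. The fruits held 2 and 22 reads of it and the buds 178 and 325, which is 1.45 ± 1.73 CPM against 29.7 ± 12.9 CPM (SD, n = 2). The organs did not overlap. The buds differed more in RPKM, and the fruits differed more as a ratio. Floral bud replicate 1 stood 92.7 times as high as fruit replicate 1 (interval 25.3 to 771), a ratio that rests on 2 reads, and floral bud replicate 2 stood 14.5 times as high as fruit replicate 2 (interval 9.44 to 23.5). The fitted log2 fold change was -4.29 (SE 1.20), or 19.6 times as high in buds. It was -7.10 without fruit replicate 2 and -3.36 without fruit replicate 1, each with 1 fruit library left.

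**Figure D1:**
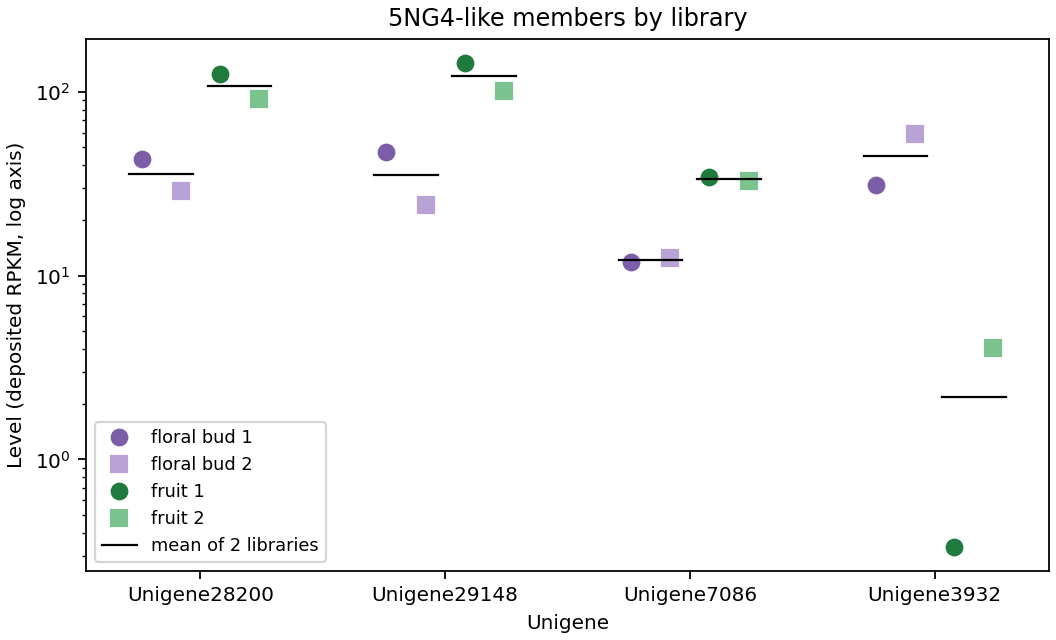
Deposited RPKM (log axis) of the 4 members in each library, with floral buds in purple, fruits in green, circles for replicate 1, squares for replicate 2 and black lines at the mean of 2 libraries. The first 3 unigenes are higher in both fruit libraries than in both bud libraries, and Unigene3932_P106 is lower, at 0.34 and 4.03 RPKM in fruit.

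No overlap between the organs was found for 3 members with fruit higher and for 1 with fruit lower, which is how they were chosen. Over all 59858 tested unigenes, the share without overlap was 8.49% with fruit higher and 13.6% with fruit lower. A difference of at least 2-fold in the same direction in both pairs of same-numbered libraries was seen for 0.473% of all tested unigenes with fruit higher and for 1.84% with fruit lower, and all 4 members were among these. In the fit over all unigenes, 612 had a larger fold than Unigene29148_P106 and 122 had a lower one than Unigene3932_P106. The median log2 fold change of all tested unigenes was 0.01.

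Set against each other within a library, the members change order between the organs. Per length, Unigene28200_P106 stood 371 times as high as Unigene3932_P106 in fruit replicate 1 (interval 102 to 3073, from 2 reads of the latter) and 22.8 times as high in fruit replicate 2 (interval 14.9 to 36.7). In floral bud replicate 1 this ratio was 1.38 (interval 1.13 to 1.69), and in floral bud replicate 2 it was 0.49 (interval 0.40 to 0.60). Unigene7086_P106 was at 102 and 8.11 times the RPKM of Unigene3932_P106 in fruit replicates 1 and 2, and at 0.38 and 0.21 times in bud replicates 1 and 2. Unigene3932_P106 was therefore the least abundant member in both fruits and the most abundant one in floral bud replicate 2. In floral bud replicate 1 it lay between Unigene28200_P106 and Unigene7086_P106.

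The pair that shares a tomato protein stood at a ratio near 1 in every library. The RPKM of Unigene29148_P106 over that of Unigene28200_P106 was 1.15 (interval 1.04 to 1.27) and 1.10 (0.97 to 1.25) in fruit replicates 1 and 2, and 1.09 (0.91 to 1.31) and 0.84 (0.66 to 1.07) in the buds. Their levels differed beyond counting error only in fruit replicate 1. Another unigene with this best hit, Unigene28426_P106, is 198 bases long and was not among the members. It was at 54.4 and 71.1 RPKM in the fruits and 18.7 and 18.1 RPKM in the buds. The fruits again lay above the buds, with a log2 fold change of 1.80 (SE 0.38, edgeR unadjusted p = 0.00698, Benjamini-Hochberg adjusted p = 1). The 3 unigenes together summed to 175 and 133 CPM in the fruits and to 58.9 and 35.9 CPM in the buds. Whether they are fragments of one transcript or separate gene copies cannot be told apart from these tables, and reads shared between near-identical copies could have been dropped from the unique counts, so their separate levels are uncertain and they are not independent of each other.

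The grapevine protein matched by Unigene3932_P106 was also the best hit of Unigene95169_P106 (271 bases), with 0 reads in both fruits and 8 and 17 reads in the buds. Set against a floor of 3 reads in a fruit library, its bud levels were 2.54 to 6.09 times that floor. The counting error of the bud reads is not included in these ratios. A further unigene with a grapevine best hit, Unigene94364_P106 (611 bases), had 0 and 2.31 CPM in fruit and 16.9 and 25.4 CPM in bud libraries. Its level in floral bud replicate 1 was 50.7 times the same floor in fruit replicate 1, again without counting error. In edgeR's quasi-likelihood test it had a log2 fold change of -4.12 (SE 1.51, unadjusted p = 0.0460, Benjamini-Hochberg adjusted p = 1). With 0 and 19 reads in the fruits it passed the filter on low counts through its bud libraries, so this p is no support for a difference. All 3 unigenes with a grapevine best hit were thus lower in both fruits than in both buds, as were 13.6% of all tested unigenes. Unigene3932_P106 was chosen for this direction. Unigene95169_P106 shares its best hit and did not pass the filter on low counts. The observation was made after the values were seen and is no result about grapevine hits.

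The share of each member's length reached by reads, as deposited by the authors, moved little for the members higher in fruit. Unigene28200_P106 was covered over 90.7% and 87.7% of its length in the fruits and 84.3% and 91.2% in the buds, and the organs overlapped. The shares were 99.4% and 99.2% in the fruits and 89.2% and 98.9% in the buds for Unigene29148_P106, and 97.2% and 96.7% against 90.7% and 98.9% for Unigene7086_P106. For Unigene3932_P106 the share was 83.0% and 83.7% in the buds, 69.7% in fruit replicate 2 and 14.8% in fruit replicate 1, where it had 2 reads. Reads of the first 3 thus came from most of each unigene's length in all libraries.

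**Figure D2:**
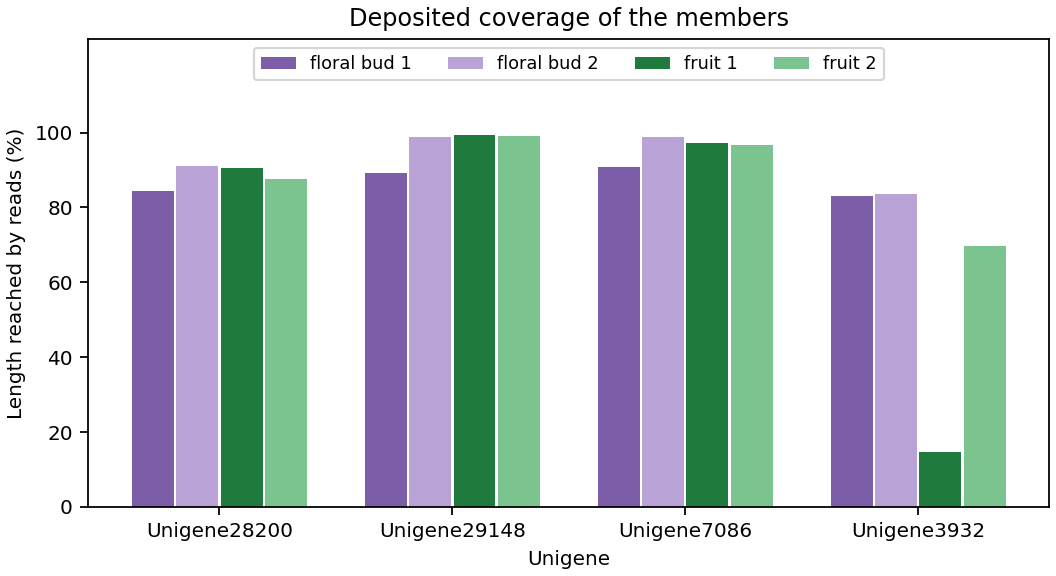
Percentage of each member's length reached by reads in each library, as deposited, with bars starting at 0. Bars of the first 3 unigenes lie between 84.3% and 99.4%, and Unigene3932_P106 drops to 14.8% in fruit replicate 1.

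The members were a part of a larger group of transcripts with the same name. The 79 unigenes with a 5NG4 description matched 35 different proteins, 26 of which were the best hit of more than 1 unigene, so the unigenes are not a count of genes. No description used here named WAT1-related, nodulin MtN21 or EamA proteins, so the family rests on the 5NG4 name. Lengths ran from 159 to 1524 bases. The sum over the 79 was 637 and 983 CPM for the fruit libraries and 852 and 855 CPM for the bud libraries, so that the organs overlapped. Within this sum the 4 members took 32.4% (interval 31.1 to 33.6) and 16.4% (15.6 to 17.2) of the reads in fruit replicates 1 and 2, and 10.6% (9.88 to 11.3) and 10.1% (9.38 to 10.8) in bud replicates 1 and 2. The share of Unigene3932_P106 alone was 2.42% and 4.54% in the buds and 0.0349% and 0.272% in the fruits.

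The most abundant unigene of the group, Unigene8541_P106 (1524 bases), had 54.0 and 150.1 CPM in fruit and 296 and 252 CPM in bud libraries. Like Unigene3932_P106 it was lower in both fruits, but with fruit replicate 2 much closer to the buds (log2 fold change -1.35, SE 0.66, edgeR unadjusted p = 0.103, Benjamini-Hochberg adjusted p = 1). It held 34.7% of the group's reads in floral bud replicate 1 and 8.47% in fruit replicate 1. Next came a pair with one tomato best hit, Unigene53039_P106 at 95.0 ± 31.3 CPM for fruit and 79.8 ± 19.4 CPM for buds, and Unigene54120_P106 at 64.3 ± 16.7 and 54.6 ± 13.6 CPM (SD, n = 2). Both overlapped between the organs. Unigene53039_P106 was annotated to the plant vacuole, to auxin metabolism and to cell wall biogenesis, terms that match what is known of Arabidopsis WAT1 and that no member carried. Unigene33532_P106 was nearly level, with 30.5 and 32.6 CPM in fruit and 29.8 and 32.2 CPM in bud libraries.

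**Figure D3:**
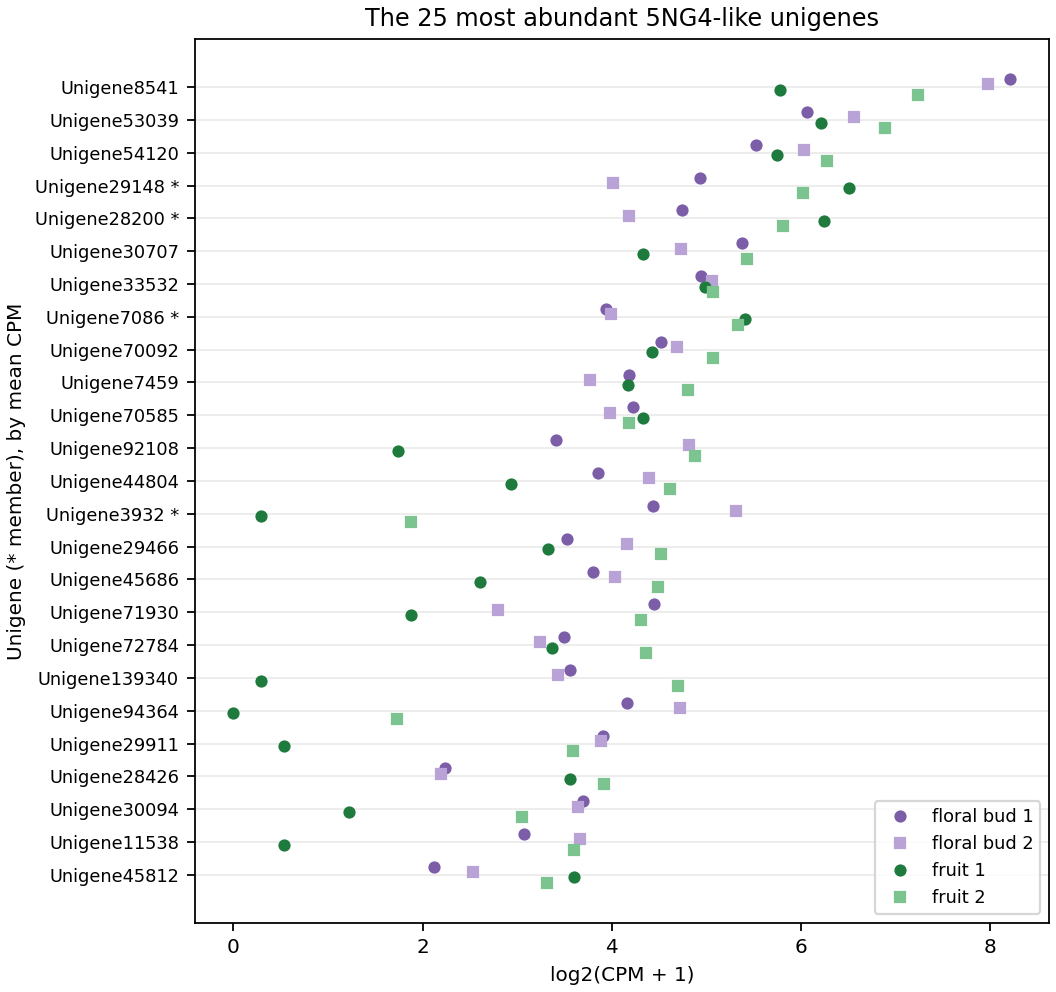
Levels as log2(CPM + 1) of the 25 5NG4-like unigenes with the highest mean CPM, with buds in purple, fruits in green, circles for replicate 1 and squares for replicate 2, and members marked with an asterisk. Green points lie right of purple ones for the 3 members higher in fruit and left of them for Unigene3932_P106, and for several other unigenes fruit replicate 1 alone lies far to the left.

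Of the 79 unigenes, 51 passed the filter on low counts, the 4 members and 47 others. Unigene3932_P106 passed through its bud libraries. After Benjamini-Hochberg adjustment, edgeR's quasi-likelihood test called 0 of the 47 others higher and 0 lower in fruit, as it called 0% of all 59858 unigenes in either direction. At an unadjusted p under 0.05 it had 4 of the 47 higher and 1 lower, where the share over all tested unigenes was 0.51% and 1.11%. DESeq2 called 0 of the 48 others that it tested in either direction, and over all unigenes it called 0.0491% higher and 0.21% lower. The 4 with an unadjusted p under 0.05 and fruit higher were Unigene28426_P106, Unigene45812_P106 (11.1 and 8.98 CPM against 3.35 and 4.78 CPM for fruit against bud), Unigene12013_P106 (5.22 and 7.52 against 2.78 and 2.39 CPM) and Unigene22293_P106 (9.78 and 3.40 against 2.20 and 1.67 CPM). The 1 lower was Unigene94364_P106. Among the 47 others, 8 lay higher and 6 lower in both fruits than in both buds, against 8.49% and 13.6% of all tested unigenes. Their median log2 fold change was 0.22.

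Which of the others were called depended on the fruit library. Without fruit replicate 2, edgeR's quasi-likelihood test called 2 of 54 others higher and 10 lower, while it called 2.29% of all unigenes higher and 6.14% lower. Without fruit replicate 1 it called 1 of 51 higher and 1 lower, while it called 1.44% and 0.466% of all unigenes. Each fit rests on 1 fruit library, whose spread was taken from the buds, and the same buds serve in both. Those lower without fruit replicate 2 included Unigene8541_P106 (log2 fold change -2.44, SE 0.47), Unigene139340_P106, Unigene29911_P106 and Unigene94364_P106. Unigene139340_P106 and Unigene29911_P106 had 2 and 4 reads in fruit replicate 1 and passed the filter on low counts through their buds. The same holds for Unigene11538_P106 and Unigene125938_P106, also called lower, with 4 and 0 reads there. The number called lower is therefore no support for an excess among the others. Only Unigene94364_P106 among the others was called in both fits, lower in each (adjusted p = 1.91e-08 without fruit replicate 2 and 0.0039 without fruit replicate 1), and it entered these fits through the buds as well. Unigene28426_P106 was the 1 called higher without fruit replicate 1 (log2 fold change 2.07, SE 0.50, adjusted p = 0.0221). Without either bud library, 0 were called.

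Fruit libraries and same-numbered pairs differed for single unigenes of the group. Unigene139340_P106 had 0.22 CPM in the first fruit library and 24.9 CPM in the other, with 10.8 and 9.79 CPM in the buds. Unigene71930_P106 had 2.67 and 18.8 CPM in fruit and 20.8 and 5.97 CPM in bud libraries. Differences of at least 2-fold in opposite directions were found for 4 of the 47 others and for 2.78% of all tested unigenes. The median log2 difference of the 47 others was -0.26 between libraries numbered 1 and 0.50 between libraries numbered 2. The members higher in fruit had 1.47 to 1.56 and 1.46 to 2.13. They were chosen for this direction, so the contrast with the others is no result.

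**Figure D4:**
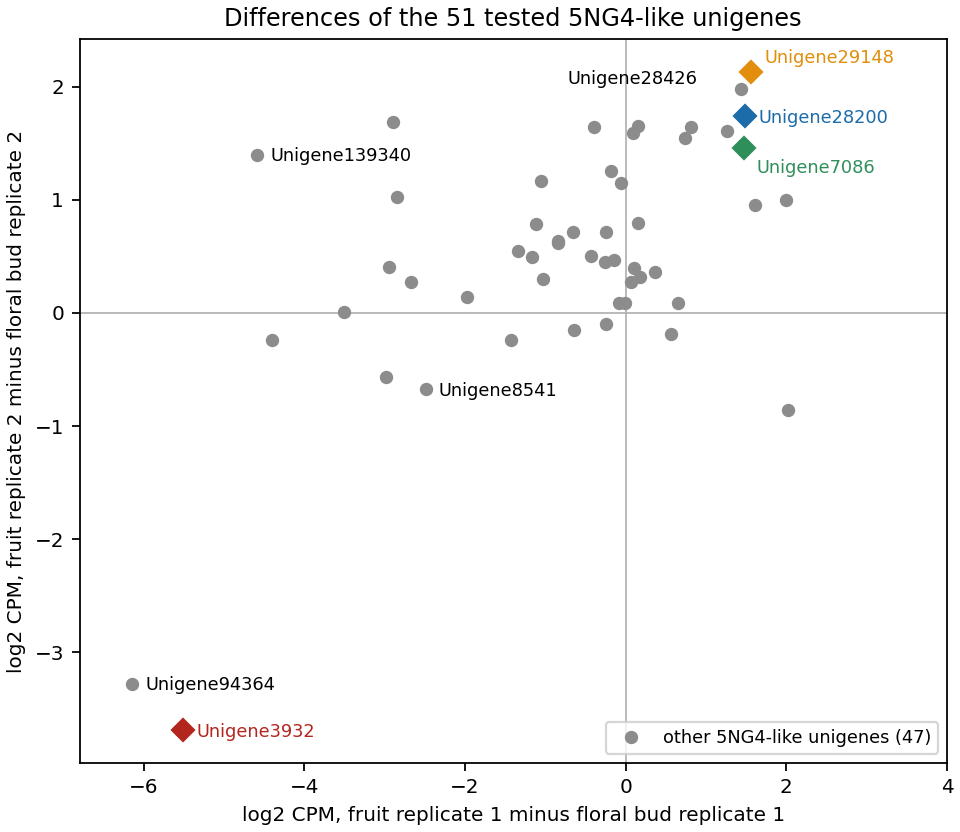
Difference in log2 CPM of fruit and floral bud for the 51 tested 5NG4-like unigenes, between libraries numbered 1 (horizontal) and numbered 2 (vertical), with members as coloured diamonds and others as grey points. The 3 members higher in fruit sit in the upper right corner beside Unigene28426_P106, Unigene3932_P106 sits in the lower left beside Unigene94364_P106, and most others scatter to the left with vertical differences near or above 0.

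The unigenes whose levels over the 4 libraries were most like those of each member were sought among 46761 described unigenes with a mean of at least 1 CPM. The measure was the root mean square difference of log2 CPM after centring each unigene. Closest to Unigene28200_P106 were a leucoanthocyanidin dioxygenase-like transcript of anthocyanin synthesis (Unigene92254_P106, difference 0.11), a WRKY transcription factor 5 (Unigene114739_P106, 0.12) and a plastid glucose-6-phosphate translocator (Unigene30808_P106, 0.13). The translocator, at 42.8 and 34.2 CPM in fruit and 19.0 and 10.9 CPM in bud libraries, was the most abundant of these 3. Closest to Unigene29148_P106 were the same WRKY factor (0.13), a GABA transporter 1-like transcript (Unigene59602_P106, 0.13) and a salt tolerance-like protein (Unigene38828_P106, 0.14). In floral bud replicate 2 these were at 0.72, 0.24 and 0.72 CPM, so the matches rest on few reads. Unigene28200_P106 and Unigene29148_P106 were nearer to each other (0.18) than to Unigene7086_P106 (0.27 and 0.43). Unigene28426_P106, with the same best hit as the pair, was nearer to Unigene7086_P106 (0.20) than to Unigene28200_P106 (0.35) or Unigene29148_P106 (0.45). Within 0.5 lay 787 unigenes for Unigene28200_P106, 232 for Unigene29148_P106 and 1391 for Unigene7086_P106.

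Unigene7086_P106 was most like a metal transporter (Unigene130116_P106, 0.07), a protein of unknown role (Unigene78491_P106, 0.09) and a pentatricopeptide repeat protein (Unigene113120_P106, 0.10). The last is a type known for binding organelle RNA, and all were below 8 CPM. In the buds the metal transporter was at 0.69 and 0.84 CPM and the repeat protein at 0.69 and 0.72 CPM, so these matches rest on few reads. Closest to Unigene3932_P106 were a class S F-box protein (Unigene139035_P106, 0.21), a relative of genes at the self-incompatibility locus, an eIF4A-8-like transcript for an RNA helicase of translation initiation (Unigene2383_P106, 0.22) and a BOBBER 1-like transcript (Unigene17471_P106, 0.22). The F-box transcript had 0 and 0.97 CPM in the fruits, so its match rests on few reads there. The helicase transcript had 0.11 and 2.67 CPM in fruit and 24.2 and 37.0 CPM in bud libraries. Within 0.5 of Unigene3932_P106 lay 42 unigenes.

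Markers of other tissues differed between the libraries beside the members. The sum over 63 unigenes with pollen or anther words was 968 and 7388 CPM in fruit and 3493 and 4176 CPM in bud libraries, and 14 of them had 0 reads in fruit replicate 1. Unigene54708_P106, like the tomato pollen protein LAT52, had 0.67 and 865 CPM in fruit and 600.2 and 678 CPM in bud libraries. Pollen transcripts were thus abundant in fruit replicate 2. The 71 seed and embryo unigenes summed to 545 and 937 CPM in the fruits and 5642 and 5841 CPM in the buds, and 10 and 8 of them had 0 reads in the fruits and 2 and 6 in the buds. Most of the bud sums came from a pair described as vicilin-like antimicrobial peptides, Unigene53698_P106 at 3046 and 2871 CPM and Unigene53454_P106 at 926 and 924 CPM. The list takes its name from words in the descriptions, and the buds were collected before fertilization. Of 43 tested in this list, 3 lay higher and 14 lower in both fruits, against 8.49% and 13.6% of all tested unigenes, with a median log2 fold change of -0.25. The 95 photosynthesis unigenes summed to 14189 CPM in fruit replicate 1 and to 5054, 5751 and 5913 CPM in fruit replicate 2 and the buds. The part of these tissues in the members' levels was not tested, and in such whole-organ samples fewer cells of a type and less RNA per cell cannot be told apart.

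Other transcripts of the auxin pathway were counted by their descriptions. The 90 unigenes for Aux/IAA repressors and auxin response factors, which carry the transcriptional response to auxin, summed to 1625 and 1651 CPM in the fruits and 1830 and 1866 CPM in the buds. Of the 75 tested, edgeR's quasi-likelihood test called 0 in either direction, 4 lay higher and 9 lower in both fruits against 8.49% and 13.6% of all tested unigenes, and the median log2 fold change was -0.05. The repressor IAA9 (Unigene54092_P106) had 236 and 328 CPM in fruit and 370 and 463 CPM in bud libraries, and another Aux/IAA transcript (Unigene52602_P106) at 96.4 and 146 against 142 and 203 CPM. The receptors of the TIR1 type, which mark Aux/IAA proteins for breakdown, summed to 278 and 284 CPM in the fruits and 305 and 332 CPM in the buds. Of 19 tested receptors, 1 lay higher and 10 lower in both fruits, beside those same shares of 8.49% and 13.6%, with a median log2 fold change of -0.21. The leading receptor transcript (Unigene6880_P106) was at 135 and 151 against 134 and 166 CPM, and a tobacco-like one (Unigene129597_P106) at 29.8 and 24.9 against 35.6 and 35.8 CPM.

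Synthesis genes, for tryptophan synthase, tryptophan aminotransferase and YUCCA enzymes, summed to 216 and 176 CPM in the fruits and 199 and 182 CPM in the buds. Of 18 tested, 3 lay higher and 4 lower in both fruits, against 8.49% and 13.6% of all tested unigenes. Most of their level came from tryptophan synthase, whose Unigene5578_P106 was at 91.4 and 54.9 against 67.1 and 57.4 CPM and Unigene10415_P106 at 47.9 and 39.3 against 34.5 and 37.6 CPM. Only 4 unigenes were described as auxin efflux carriers, none passed the filter, and their sum was 1.15 ± 0.26 CPM for fruit and 1.64 ± 0.13 CPM for buds (SD, n = 2). The higher of them, a PIN6-like one (Unigene59865_P106), was at 0.56 and 0.36 against 0.93 and 0.60 CPM, and Unigene123753_P106 at 0 and 0.36 against 0.46 and 0.96 CPM.

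Early auxin response genes, the SAUR, GH3 and other auxin-induced families, summed to 673 CPM in fruit replicate 1 and to 1141, 1133 and 1135 CPM in fruit replicate 2 and the buds. A GH3.6-like enzyme that joins auxin to amino acids (Unigene28414_P106) had 57.5 and 259 CPM in fruit and 287 and 306 CPM in bud libraries, and Unigene27704_P106 of the same description had 29.8 and 112 against 150.0 and 118 CPM. For both, fruit replicate 1 was the lowest library and both fruits lay below both buds. Of 68 tested members of this list, 10 lay higher and 15 lower in both fruits, against 8.49% and 13.6% of all tested unigenes.

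Amino acid carriers and secondary wall genes were counted because relatives of 5NG4 are known for these roles. The carriers summed to 900 and 1708 CPM in the fruits and 1120 and 1284 CPM in the buds. Of 110 tested, 21 lay higher and 18 lower in both fruits, against 8.49% and 13.6% of all tested unigenes, and a lysine histidine transporter 1-like transcript (Unigene5279_P106) had 1.22 and 455 CPM in fruit and 88.8 and 159 CPM in bud libraries. The vacuolar cationic carrier Unigene28018_P106 was at 43.8 and 98.1 against 42.1 and 65.2 CPM. Secondary wall genes summed to 3271 and 6184 CPM in the fruits and 4295 and 5224 CPM in the buds. Of 117 tested, 9 lay higher and 19 lower in both fruits, near the shares over all unigenes of 8.49% and 13.6%. Their leading transcripts, a fasciclin-like protein (Unigene54644_P106) and a COBRA-like protein 10 (Unigene54505_P106), were nearly absent from fruit replicate 1, at 0.56 and 0.78 CPM. In fruit replicate 2 they stood at 1097 and 1004 CPM, and in the buds at 281 and 746 CPM and at 319 and 496 CPM. Fruit replicate 1 was likewise the lowest and fruit replicate 2 the highest library for the pollen list and for Unigene54708_P106, and a COBRA-like 10 protein is known from pollen tubes of Arabidopsis. The part of pollen in the sums of this list was not tested. In these 7 lists edgeR's quasi-likelihood test and DESeq2 both called 0 unigenes. At an unadjusted p under 0.05 edgeR had 2 higher, 1 of 68 early response genes and 1 of 110 amino acid carriers. It had 11 lower, 1 of 18 synthesis genes, 4 of 110 amino acid carriers and 6 of 117 secondary wall genes. None of the 19 receptors or 75 Aux/IAA and response factor unigenes was among them. Over all tested unigenes the share was 0.51% higher and 1.11% lower. Without fruit replicate 2, where it called 2.29% of all unigenes higher and 6.14% lower, it called 5 of 70 early response genes higher and 14 lower, 7 of 117 amino acid carriers higher and 23 lower, 9 of 132 secondary wall genes higher and 33 lower, and 0 of 19 synthesis genes higher and 3 lower. Without fruit replicate 1, where it called 1.44% and 0.466% of all unigenes, it called 4 of 69 early response genes higher and 0 lower, 3 of 117 amino acid carriers higher and 1 lower, and 3 of 123 secondary wall genes higher and 7 lower.

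**Figure D5:**
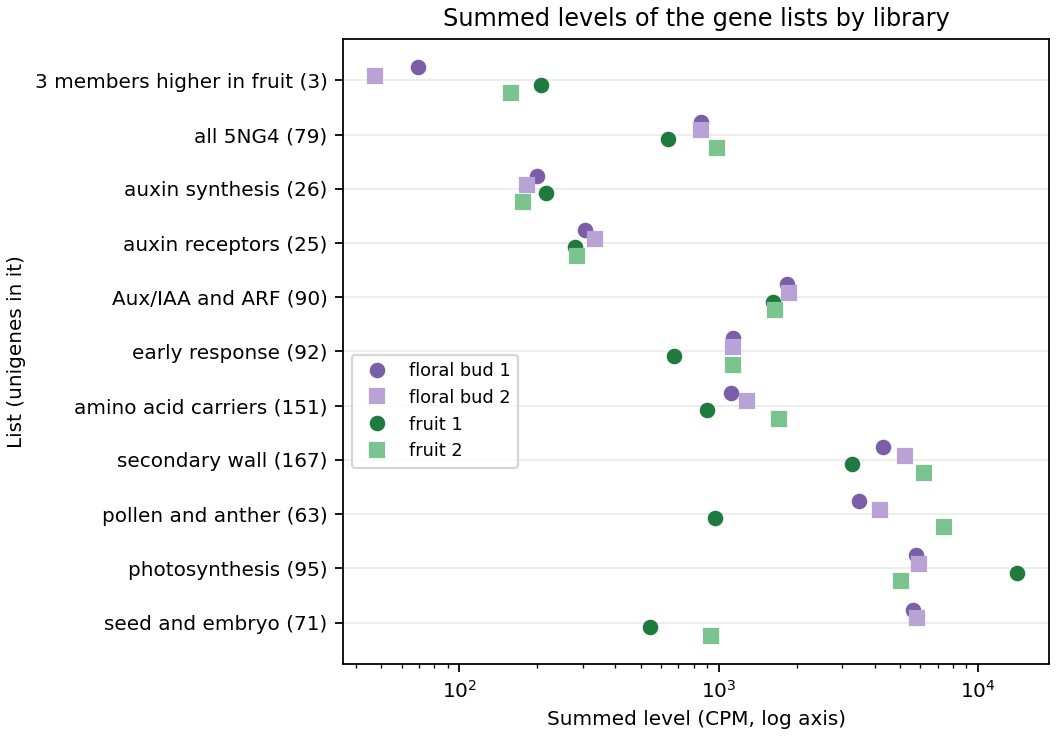
Summed CPM (log axis) of the members higher in fruit, of all 5NG4-like unigenes and of each list with tested unigenes, with buds in purple, fruits in green, circles for replicate 1 and squares for replicate 2. The summed members run from 47.3 CPM in floral bud replicate 2 to 206 CPM in fruit replicate 1, the seed and embryo list is lower in both fruits, and the pollen and photosynthesis lists set fruit replicate 1 apart.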

How the data were processed

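RNA-seq of 2 fruit and 2 floral bud libraries was analysed. The deposited counts, per the file headers, are uniquely mapped reads per unigene. The deposited RPKM are scaled by the authors to unigene length and library total, and the deposited coverage is the percent of a unigene's length reached by reads. The sources used here name no assembler, aligner or counting program. Unigenes missing from a file were taken as 0. Descriptions are the deposited nr hits, from replicate 2 files where given.

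Counts were fitted with edgeR 4.0.16 (R 4.3.3): filterByExpr, TMM, glmQLFit and glmQLFTest without covariate, two-sided, Benjamini-Hochberg over 59858 unigenes, threshold 0.05, with 2 residual degrees of freedom. SE is the log2 fold change over the root of F. DESeq2 1.42.0 was an alternative. Log2 CPM used TMM and a prior count of 2. No exact permutation test was run, since with 2 libraries against 2 its p cannot go under 0.333.

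The members and keyword lists were chosen with earlier results of these data known. Named unigenes are the members, others described as 5NG4-like with a mean of at least 1 CPM (a selection), the 2 most abundant of each list and the 3 most like each member; others were chosen after their values were seen. Alternatives were other scaling, no filter, DESeq2, a replicate block, log2(RPKM + 1) and leaving out each library.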

Additional observations from a re-analysis of the deposited data

How the results depend on the processing

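The members were chosen with both fruits on one side of both buds, which fixes their direction when a library is left out. Leaving out each library moved the log2 fold change of Unigene28200_P106 between 1.42 and 1.85, of Unigene29148_P106 between 1.47 and 2.28, of Unigene7086_P106 between 1.38 and 1.60 and of Unigene3932_P106 between -7.10 and -3.36. With log2(RPKM + 1) in place of the model they were 1.58, 1.81, 1.39 and -4.08. After Benjamini-Hochberg adjustment DESeq2 called 30 unigenes higher and 128 lower, 3 of the higher ones 5NG4-like. These are members, chosen on this contrast, and the calls support nothing. Leaving out each library gave 0 to 1546 unigenes higher and 0 to 4135 lower, and 0 to 4 higher and 0 to 11 lower among 5NG4-like unigenes, members included. Both counts were 0 without either bud library, and the cause was not tested. DESeq2's size factors and no filter on low counts left every count at 0. The family taken from 5NG4 descriptions alone is the same set of unigenes as the family used above, so it gave no separate check. The labels give no shared plant or batch for a replicate number, and same-numbered libraries deviated together (r = 0.466 across unigenes, 1 independent value). With the number as a replicate block, edgeR called 0 and 0, and the members' log2 fold changes were 1.62, 1.85, 1.48 and -4.78. Depth limits Unigene3932_P106, with 2 reads in fruit replicate 1.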

Other observations

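The short unigene that shares a tomato protein with a pair of members stood at a lower ratio to them in libraries numbered 1 than in those numbered 2. The RPKM of Unigene28426_P106 over that of Unigene29148_P106 was 0.38 in fruit replicate 1 (interval 0.31 to 0.47) and 0.40 in floral bud replicate 1 (0.27 to 0.58), but 0.70 (0.57 to 0.86) and 0.75 (0.49 to 1.13) in the fruit and bud replicates 2. Against Unigene28200_P106 it was 0.44 (0.35 to 0.54), 0.44 (0.29 to 0.63), 0.77 (0.63 to 0.95) and 0.63 (0.41 to 0.94) in the same order of libraries. For both ratios the intervals of replicates 1 and 2 lay apart in the fruits and overlapped in the buds. Overlap of intervals does not show that the bud ratios were equal, and their difference was not tested. The pair Unigene53039_P106 and Unigene54120_P106, which also shares a best hit, kept a ratio of 0.98 to 1.09 in the 4 libraries. These ratios were looked at after the values were seen.

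Unigene38640_P106, another 5NG4-like transcript, was at 7.55 CPM in fruit replicate 1 and at 0.97, 1.62 and 2.03 CPM in fruit replicate 2 and bud replicates 1 and 2. Unigene19549_P106, of 1018 bases, had reads in fruit replicate 1 alone, at 1.67 CPM. Both were picked with their values in view.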
